A study of Mus musculus with 8 samples.

Results

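The genes described here are 42 enzymes and transporters of mouse glucose metabolism, taken by name from glycolysis, glycogen metabolism and the pentose phosphate pathway among 21951 named genes of the array. All 42 were on the array, with 61 of its 55681 probes, and 38 of them passed the filter on dim probes and were tested. They fall into 7 branches by role: 5 glucose and lactate transporters, 9 genes of upper glycolysis, 10 of lower glycolysis, 4 enzymes that make and remove the sugar phosphate activator of phosphofructokinase, 3 of the oxidative and 4 of the non-oxidative pentose phosphate pathway, and 7 of glycogen metabolism. RNA came from satellite cells, the stem cells of skeletal muscle, of C57BL/6 mice labelled male and aged 3 months. The column names of the authors' normalized values mark both groups as WT, for wild type. The 4 basal samples came from uninjured muscle and the 4 injured samples from muscle 3 days after cardiotoxin, a snake venom toxin that kills muscle fibres and so starts regeneration. Cells of both groups were sorted for integrin a7 and against CD31, CD45, CD11b and Sca1. Each sample was put on 1 single-colour array, the labels call the samples biological replicates, and they say nothing of pooled animals. The series compares quiescent with activated stem cells, and here the comparison is which steps of sugar use differ between them in mRNA.

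Glycolysis splits glucose into pyruvate and lactate and yields ATP without oxygen, and its early intermediates also feed the pentose phosphate pathway, which makes NADPH and the ribose of nucleotides. Glycogen is the store of glucose, which is large in muscle fibres. Many steps have several isoforms from separate genes, such as the muscle forms Pygm, Eno3 and Pgam2 and the widely expressed forms Eno1 and Pgam1. Quiescent satellite cells are known for a low metabolic rate, and their activation for a shift towards glycolysis.

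A level in this text is the log2 signal of a gene's probe minus the 75th percentile of that array, so 0 is the level that 75 percent of the array's spots lie below, and a difference is the injured mean minus the basal mean of such levels. A gene counts as called where limma's adjusted p, taken over all 13752 genes tested, was under 0.05. Levels of different probes are not set against each other. As a mark of depth, between 50.1% and 56.7% of the spots were well above background on each array, and none was saturated.

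All basal arrays lay on one slide and all injured arrays on another, so slide and injury cannot be told apart. Basal arrays 1 and 2 carried endothelial transcripts in spite of the CD31 gate: the log2 level of Pecam1, which encodes CD31, was 3.20 and 2.87 there, -2.20 and -3.22 on basal arrays 3 and 4, and between -3.11 and -1.82 on the injured arrays. Tie1, another endothelial gene, read 3.00 and 2.70 on basal arrays 1 and 2 and -2.36 or less elsewhere. Of the other endothelial genes, Cdh5, Emcn, Esam, Vwf and Cldn5 were also highest on basal arrays 1 and 2, but Tek and Kdr were not. Tek was at least 3.13 on every basal array and highest on basal arrays 3 and 4, at 4.33 and 3.97. Kdr read 2.63 to 2.93 on the basal and 3.02 to 3.32 on the injured arrays. The sex label did not hold on injured arrays 2, 3 and 4. Xist, the transcript of the inactive X chromosome, had log2 levels of 6.37 to 6.57 there, and none of 4 Y-linked genes was above background. Injured array 1 had all 4 Y-linked genes above background with a log2 Xist level of 1.72, and Xist ran from -4.97 to 3.85 over the basal arrays, each with 2 to 4 Y-linked genes above background. Sex and injury therefore cannot be told apart on 3 of the 4 injured arrays, and the counts over all members are also given without these arrays and without basal arrays 1 and 2. The satellite cell label was met by Pax7, the factor that defines these cells, on all 8 arrays, at log2 levels of 4.38 to 5.40 in the basal and 1.81 to 1.99 in the injured group, while Myf5 was above background on no array. Of 10 tested satellite cell markers 2 were called higher and 6 lower, beside 35.3% called higher and 24.8% called lower of all genes tested. The 9 endothelial markers summed to a linear signal of 23.0 to 41.7 on basal and 9.55 to 11.9 on injured arrays, in units of the array's 75th percentile. Of 7 tested, 1 was called higher and 2 lower, beside the same shares of all genes. Each cycling cell marker was highest in the basal group on basal array 1, and Mcm5 read 0.16, -0.95, -5.05 and -2.29 on basal arrays 1 to 4. Mki67 and Cdc6 were lower on basal array 2 than on basal array 4. Of the differentiating myocyte markers, Myog, Mymk, Mymx, Ttn and Chrna1 were higher on basal arrays 1 and 2 than on basal arrays 3 and 4. Myh3, Myh8, Actc1 and Tnnt2 did not keep that order.

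Most genes of upper and lower glycolysis, both pentose phosphate dehydrogenases and transketolase were higher after injury. The 4 glucose and lactate carriers tested as members were not called. Of the 7 glycogen genes 3 were higher and Pygm and Gbe1 lower, which is near the 35.3% and 24.8% of all genes tested. Of the 38 tested members, 21 were called higher, 3 lower and 14 were not called, beside 35.3% called higher and 24.8% called lower of all genes tested. The median log2 difference was 0.88 over the members and 0.17 over all genes tested. In 20 of the members every injured array lay above every basal array, and in 3 every injured array lay below, against 33.9% and 23.3% of all genes. The 21 rises ran from 0.75 for Pgm2 to 3.49 for Eno3 on the log2 scale, and the 3 falls were those of Pygm, Pfkfb4 and Gbe1. Among the rises, Hk2 passed the filter on dim probes only through the injured group. Without basal arrays 1 and 2, 20 of the 21 were again called higher and all 3 again lower. With injured array 1 as the only injured array, all 24 differences kept their sign, the 21 rises lay between 0.78 and 3.41, and 6 higher and 2 lower calls remained in a fit that assumes this lone array varies as the basal arrays do. In such bulk RNA, fewer cells of a type and less RNA per cell cannot be told apart.

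**Figure D1:**
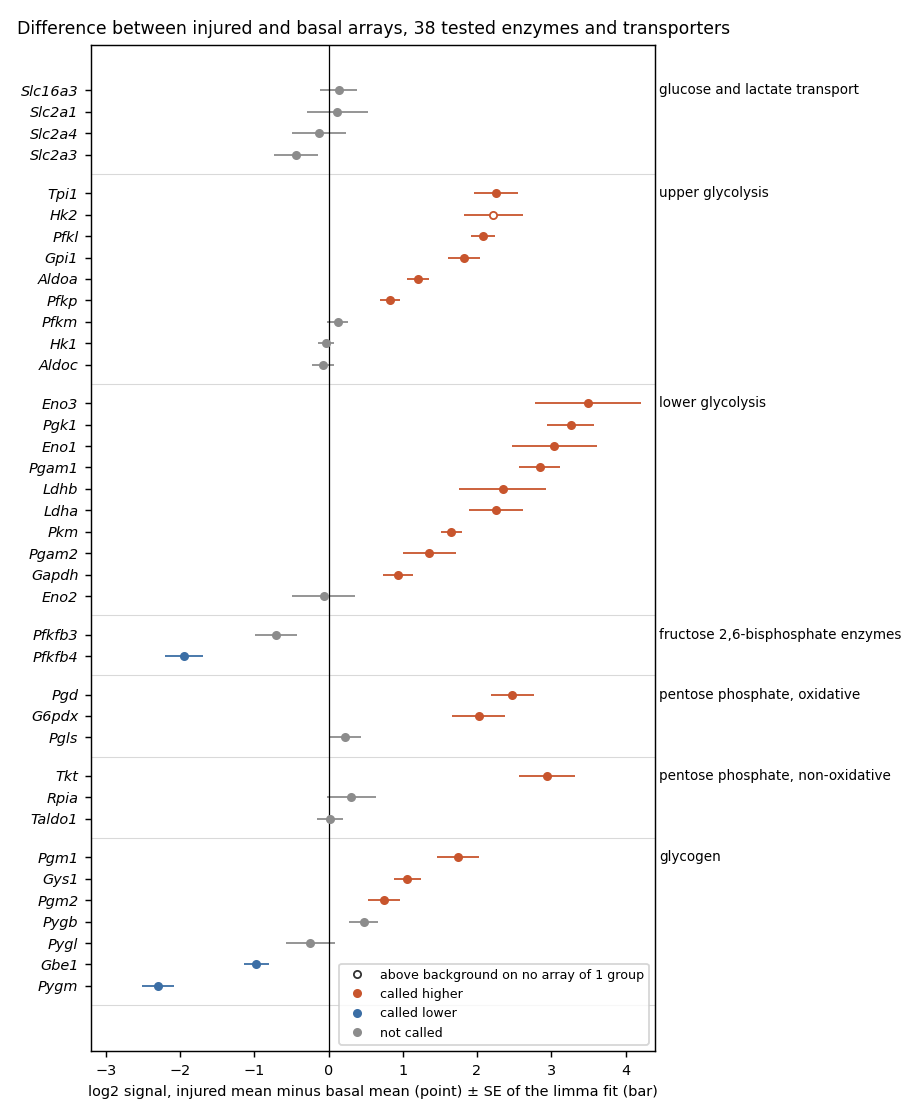
Log2 difference between the means of 4 injured and 4 basal arrays for each of the 38 tested members, grouped by branch, with the standard error of the limma fit as a bar. The open circle marks Hk2, which was above background on no basal array, so that its point is no exact difference. Lower glycolysis holds the largest rises, up to 3.49 for Eno3, the 4 transporters sit between -0.44 and 0.14, and Pygm is lowest at -2.30.

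None of the 4 transporters tested as members was called in either direction. Of the other Slc2a genes tested in the wider lists, Slc2a8, Slc2a10, Slc2a12 and Slc2a13 were called lower. Slc2a6 was called higher and Slc2a5 was not called. Slc2a1, the main glucose carrier of most cells, had log2 levels of 1.38, 1.14, 1.15 and -0.64 on basal arrays 1 to 4 and 1.03, 0.95, 0.88 and 0.64 on injured arrays 1 to 4. The injured arrays lay inside the basal range, which basal array 4 stretched downwards, and the log2 difference was 0.12 ± 0.41 (SE), adjusted p = 0.818 by limma. Slc2a4, the insulin-responsive carrier, and Slc16a3, which exports lactate, had log2 differences of -0.13 and 0.14, with limma adjusted p of 0.771 and 0.654. Slc16a1, the other lactate carrier, was above background on no array. Slc2a3, a high-affinity glucose carrier, had log2 levels of -2.15, -0.77, -0.88 and -0.89 on basal arrays 1 to 4 and -1.61, -1.47, -1.63 and -1.73 on injured arrays 1 to 4. Its injured arrays lay below basal arrays 2 to 4 and above basal array 1. The log2 difference of Slc2a3 was -0.44 (limma adjusted p = 0.23) with all arrays and -0.76 (limma adjusted p = 0.000907), a call of lower, without basal array 1. In the authors' deposited table it was 0.70 (limma adjusted p = 0.174), in the other direction.

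In upper glycolysis, which turns glucose into triose phosphates at the cost of ATP, 6 of 9 members were called higher and none lower. Of all genes tested, 35.3% were called higher and 24.8% lower. The median log2 difference of the 9 members was 1.20. The rises were in Hk2, Gpi1, Pfkl, Pfkp, Aldoa and Tpi1. Each step held at least 1 of them, but the hexokinase step held only Hk2. Hk2 was above background on no basal array and passed the filter on dim probes only through the injured group. Tpi1, which interconverts the triose phosphates, had log2 levels of 4.46, 3.73, 3.02 and 3.18 on basal arrays 1 to 4 and 5.82, 5.77, 5.97 and 5.86 on injured arrays 1 to 4. The groups lay apart by over 1 log2 unit, and the difference was 2.25 ± 0.29 (SE), adjusted p = 0.000293 by limma, a 4.77-fold rise. The other Tpi1 probe rose too, by 2.65 log2 units.

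Hk2, the inducible hexokinase that traps glucose in the cell, had log2 levels of -3.73, -4.13, -5.23 and -5.14 on basal arrays 1 to 4 and -2.26, -1.94, -2.06 and -3.08 on injured arrays 1 to 4. It was well above background on no basal array and on 3 injured arrays, and the 2 groups did not overlap. Its rise is therefore given as a bound, at least 1.80-fold, which sets the injured mean against the lowest signal told from background on the basal arrays. The adjusted p of limma on the measured signals was 0.00142, and the basal side of that test was signal near background. The value depends on the background correction: it was 0.42 log2 units with normexp, a model of signal and background after which an offset of 50 is added to every spot. Hk1, the constitutive hexokinase, had basal levels of 6.31 to 6.47 and injured levels of 6.28 to 6.45 on the log2 scale, with a difference of -0.04 ± 0.11 (SE, limma adjusted p = 0.788). One of the 3 Hk1 probes was called lower, at -0.51.

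Phosphofructokinase, the committed step of glycolysis, has a liver form (Pfkl), a platelet form (Pfkp) and a muscle form (Pfkm). Pfkl had log2 levels of 1.07, 0.90, 0.59 and 0.55 on basal arrays 1 to 4 and 3.01, 3.02, 2.77 and 2.63 on injured arrays 1 to 4. All injured arrays exceeded all basal arrays by over 1.5 log2 units, and the difference was 2.08 ± 0.16 (SE), adjusted p = 2.89e-05 by limma, a 4.23-fold rise. Pfkp rose less, by 0.83 ± 0.14 (SE) on the log2 scale, and its second probe was not called (0.42, limma adjusted p = 0.0643 over all probes). Pfkm, the form of muscle fibres, had a log2 difference of 0.12 ± 0.15 (SE, limma adjusted p = 0.494).

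Gpi1, which turns glucose 6-phosphate into fructose 6-phosphate, had log2 levels of 3.35, 2.79, 2.37 and 2.40 on basal arrays 1 to 4 and 4.61, 4.60, 4.48 and 4.55 on injured arrays 1 to 4. The injured arrays were nearly level and the basal arrays spread more widely below them, with a difference of 1.83 ± 0.22 (SE), adjusted p = 0.000193 by limma. Aldoa, the aldolase of muscle and most other cells, rose by 1.20 ± 0.15 (SE) on the log2 scale (limma adjusted p = 0.000217), with the groups apart. Aldoc, the brain aldolase, had overlapping groups and a log2 difference of -0.08 (limma adjusted p = 0.683).

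**Figure D2:**
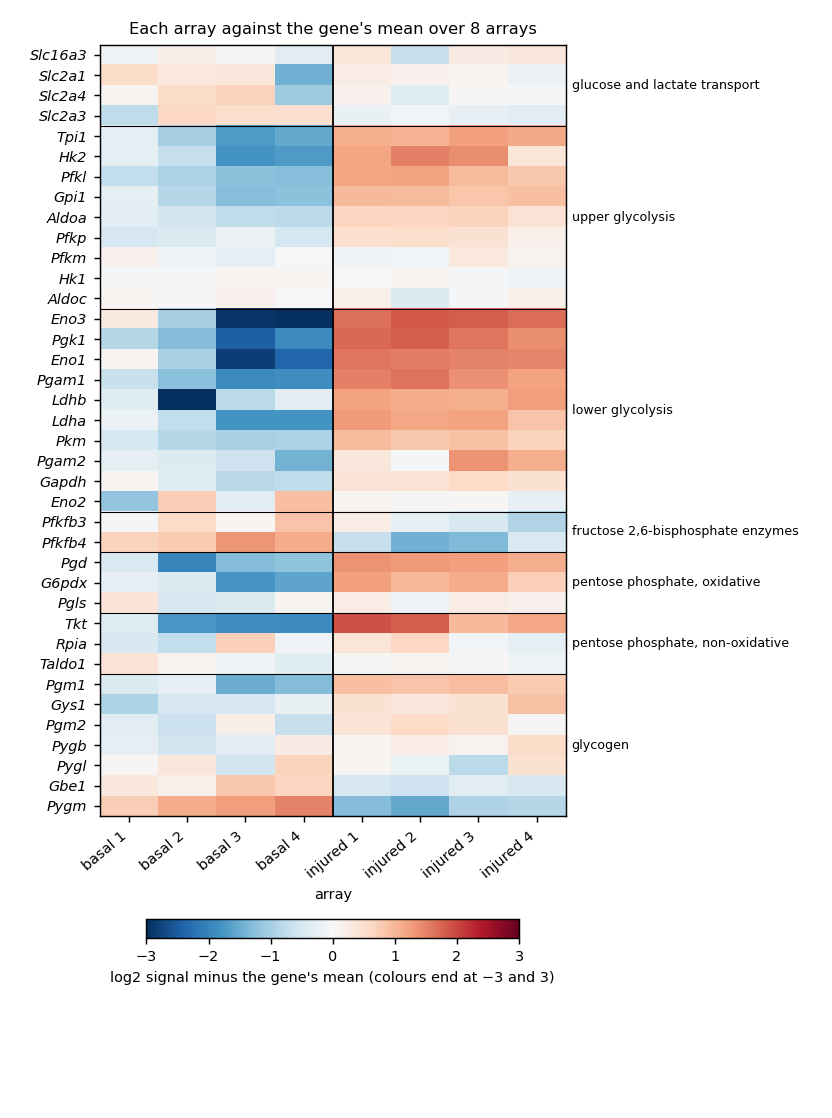
Each tested member's log2 signal on each of the 8 arrays, as the deviation from its mean over all arrays, with members as rows sorted within branch by the difference between groups. In the rows called higher, basal arrays 1 and 2 are mostly paler than basal arrays 3 and 4. The 4 injured arrays are mostly alike in these rows, with the widest spread for Pgam2, Hk2 and Tkt. The median of those 21 rows is 38.1% and 28.9% of the injured level on basal arrays 1 and 2, and 19.3% and 20.2% on basal arrays 3 and 4. The part of endothelial, cycling or differentiating cells in this spread was not tested.

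Lower glycolysis, where triose phosphate is turned into pyruvate and lactate with a yield of ATP, held the largest rises. Of its 10 members 9 were called higher and none lower, beside 35.3% and 24.8% of all genes tested. The median log2 difference was 2.30, and Eno2 alone was not called. The 9 rises cover every step from Gapdh to lactate dehydrogenase. Eno3, the enolase of differentiated muscle, had log2 levels of 4.67, 3.40, 1.45 and 1.09 on basal arrays 1 to 4 and 6.06, 6.23, 6.21 and 6.08 on injured arrays 1 to 4. Basal array 1 was the highest and basal array 4 the lowest of their group, the injured arrays were within 0.2 log2 units of each other, and the difference was 3.49 ± 0.71 (SE), adjusted p = 0.00298 by limma, a 11.2-fold rise. Without basal arrays 1 and 2 the log2 difference of Eno3 was 4.88.

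Eno1, the enolase of most cells, had log2 levels of 5.84, 4.76, 2.93 and 3.37 on basal arrays 1 to 4 and 7.34, 7.28, 7.24 and 7.20 on injured arrays 1 to 4. Basal array 1 came closest to the injured arrays here too, and the difference was 3.04 ± 0.57 (SE), adjusted p = 0.00185 by limma, an 8.24-fold rise that became 4.12 log2 units without basal arrays 1 and 2. Eno2, the neuronal enolase, had basal log2 levels from -3.29 to -1.20 around injured levels of -2.33 to -2.05, a difference of -0.06 (limma adjusted p = 0.906).

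Pgk1, the first ATP-yielding kinase of the pathway, had log2 levels of 3.58, 3.12, 1.98 and 2.52 on basal arrays 1 to 4 and 6.14, 6.24, 6.04 and 5.82 on injured arrays 1 to 4. The lowest injured array stood over 2 log2 units above the highest basal array, and the difference was 3.26 ± 0.32 (SE), adjusted p = 7.55e-05 by limma, a 9.58-fold rise. The gene lies on chromosome X, but the array places its only probe on chromosome 3, so the signal may include a near-identical copy and the value is uncertain for Pgk1 itself. Pgam1, the widely expressed phosphoglycerate mutase, had log2 levels of 3.84, 3.25, 2.59 and 2.63 on basal arrays 1 to 4 and 6.01, 6.13, 5.86 and 5.70 on injured arrays 1 to 4. Its groups were apart by nearly as much, with a difference of 2.85 ± 0.28 (SE), adjusted p = 7.55e-05 by limma, a 7.19-fold rise.

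The muscle mutase Pgam2 rose by 1.36 ± 0.36 (SE) on the log2 scale (limma adjusted p = 0.0107). Its log2 levels were -0.83, -0.96, -1.19 and -1.98 on basal arrays 1 to 4 and -0.23, -0.61, 0.79 and 0.52 on injured arrays 1 to 4, so injured arrays 3 and 4 were highest and injured array 2 only just cleared basal array 1. In the authors' deposited table Pgam2 was not called (0.74, limma adjusted p = 0.335). Markers of differentiating myocytes were also highest on injured arrays 3 and 4: Myog, the factor that starts muscle differentiation, read 2.17, 2.09, 3.26 and 3.45 on injured arrays 1 to 4, and Myh3, embryonic myosin, read 3.04, 3.02, 5.13 and 4.89. All 9 genes of that marker list were called higher, beside 35.3% of all genes tested. Their summed linear signal ran from 5.61 to 17.9 on basal and from 44.5 to 96.9 on injured arrays. Tnnt2, Mymx and Ttn were above background on 0, 1 and 2 basal arrays and on all 4 injured arrays. They passed the filter on dim probes only through the injured group, where they were higher, while the other genes of this list passed it in both groups. Of 12 mature fibre markers, 3 were called higher and 2 lower of 7 tested, beside 35.3% and 24.8% of all genes tested. Tnni2, Tnnt3 and Atp2a1 rose by 4.01, 2.47 and 1.14 log2 units, and Mb and Pvalb had log2 differences of -1.55 and -1.02. The summed linear signal of the list ran from 46.2 to 55.6 on basal and from 109 to 161 on injured arrays. Ckm, a defining gene of mature fibres, was above background on 1 of 8 arrays. The part of differentiating cells or of fibre RNA in the rises of Pgam2 and Eno3 was not tested.

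Gapdh, the oxidising step and a common reference gene, rose by 0.93 ± 0.20 (SE) on the log2 scale (limma adjusted p = 0.00422), and all 8 of its probes were called higher, by 0.84 to 1.83; in the authors' deposited table Gapdh was not called (0.74, limma adjusted p = 0.0753). The array places 6 of these on chromosome 6, where the gene lies, and the others on chromosomes 7 and 8. Pkm, pyruvate kinase, rose by 1.65 ± 0.14 (SE), and Ldha, which turns pyruvate into lactate, by 2.26 ± 0.36 (SE), with limma adjusted p of 4.22e-05 and 0.000857. Another Ldha probe was not called (1.16, limma adjusted p = 0.0673 over all probes). Ldhb, the heart form, rose by 2.35 ± 0.59 (SE, limma adjusted p = 0.00811). Basal array 2 was far below the rest for Ldhb, at -4.90, and not above background; without it the log2 difference was 1.67, and with normexp 0.85.

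Since these genes rose together, the sequence before their start sites is shown for the lower glycolysis genes Pgk1, Pgam1 and Eno3 and, as a contrast, for Pygm, which fell. Each run is the 250 bases before the RefSeq start site on build GRCm38.p6, 5′ to 3′ on the plus strand, where all 4 genes lie, with capitals on ACGTG or its reverse complement CACGT, the core of the hypoxia response element. Pgk1 lies at chrX:106186850-106187099, Pgam1 at chr19:41911621-41911870, Eno3 at chr11:70656926-70657175 and Pygm at chr19:6384158-6384407.
Pgk1: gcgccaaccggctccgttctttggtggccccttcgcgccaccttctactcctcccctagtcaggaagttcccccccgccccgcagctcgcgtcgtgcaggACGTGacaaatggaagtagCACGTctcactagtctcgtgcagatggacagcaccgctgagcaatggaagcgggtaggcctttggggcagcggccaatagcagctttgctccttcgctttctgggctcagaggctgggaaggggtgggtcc
Pgam1: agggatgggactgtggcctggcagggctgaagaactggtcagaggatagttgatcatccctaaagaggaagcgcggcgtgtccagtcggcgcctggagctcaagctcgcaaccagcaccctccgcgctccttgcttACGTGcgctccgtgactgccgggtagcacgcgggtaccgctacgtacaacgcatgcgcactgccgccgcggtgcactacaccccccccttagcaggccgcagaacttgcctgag
Eno3: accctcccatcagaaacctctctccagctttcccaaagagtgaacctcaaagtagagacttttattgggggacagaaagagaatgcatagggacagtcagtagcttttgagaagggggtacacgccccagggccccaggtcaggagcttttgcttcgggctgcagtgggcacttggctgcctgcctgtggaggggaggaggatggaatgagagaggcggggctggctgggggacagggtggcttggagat
Pygm: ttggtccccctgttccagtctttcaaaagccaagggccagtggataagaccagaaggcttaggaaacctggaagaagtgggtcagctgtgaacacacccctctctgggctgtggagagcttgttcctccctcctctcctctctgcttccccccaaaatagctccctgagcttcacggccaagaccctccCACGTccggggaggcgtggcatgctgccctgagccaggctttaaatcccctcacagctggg

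These stretches hold 2 matches in Pgk1, 1 in Pgam1, none in Eno3 and 1 in Pygm. RefSeq windows of 300 bases, from 250 before to 50 after a start site, were given for 40 of the 42 members (58 windows), all but Slc2a3 and Slc2a4. ACGTG, searched on both strands, was in at least 1 window of 21 of the 40 members (52.5%) and of 5886 of all 27025 genes with windows (21.8%). A gene with more windows has more places for a match. Counted by window, ACGTG was in 43.1% of the members' windows and 19.6% of all windows. By call it was in 10 of 21 members called higher (47.6%), 1 of 3 called lower and 10 of 16 others (62.5%). The E-box CACGTG, which contains ACGTG, was in 12.5% of members and 8.09% of all genes, and the GC box GGGCGG in 77.5% and 38.2%. A match is a string of letters and not a bound site.

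**Figure D3:**
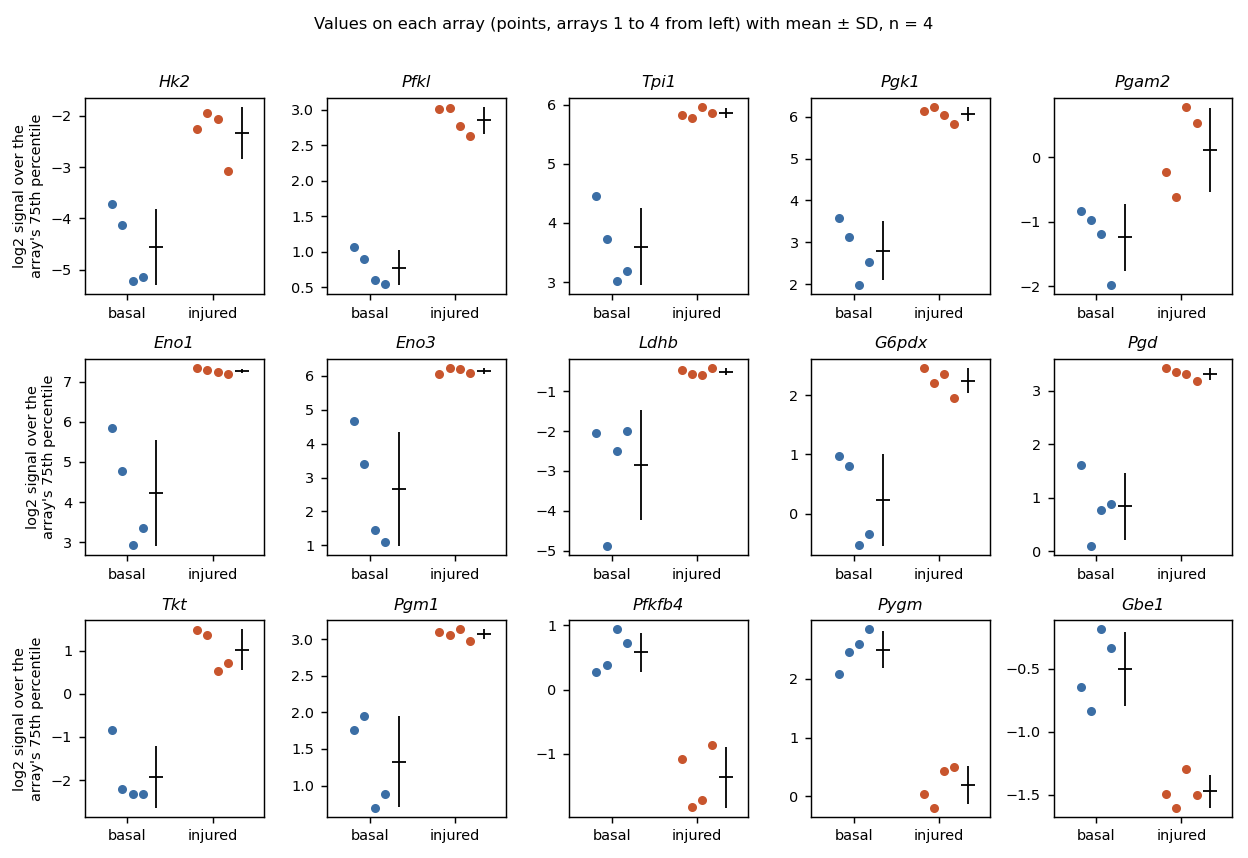
Log2 signal over the array's 75th percentile on each of 4 basal and 4 injured arrays (points, arrays 1 to 4 from left) for 15 members, with mean ± SD beside them and a separate vertical scale for each gene. Each of the 15 was called and has groups that do not overlap, so this separation is set by the choice of members. Of all genes tested, 33.9% had every injured array above every basal array and 23.3% every injured array below. Pfkfb4, Pygm and Gbe1 are lower in the injured group, and in Pgam2 injured arrays 3 and 4 stand above injured arrays 1 and 2.

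The bifunctional enzymes of the Pfkfb family set the level of the activator of phosphofructokinase. Neither Pfkfb1 nor Pfkfb2 was above background on any array. Pfkfb4 had log2 levels of 0.27, 0.39, 0.94 and 0.73 on basal arrays 1 to 4 and -1.08, -1.82, -1.72 and -0.86 on injured arrays 1 to 4. Every injured array was more than 1 log2 unit below every basal array, and the difference was -1.95 ± 0.26 (SE), adjusted p = 0.000312 by limma. The second Pfkfb4 probe was not called (-0.67, limma adjusted p = 0.365 over all probes), and in the authors' deposited table the log2 difference was 0.085, so the fall rests on 1 probe of the scanner files. Pfkfb3, the form with the strongest kinase activity, had a log2 difference of -0.71 ± 0.29 (SE, limma adjusted p = 0.059) with overlapping groups. Its second probe was called lower, at -1.47 (limma adjusted p = 0.0123 over all probes), and the first was called lower without basal array 1 (-0.85, limma adjusted p = 0.0373) and without injured array 1 (-0.90, limma adjusted p = 0.0254). In the authors' deposited table Pfkfb3 was not called, and its log2 difference was 0.41 (limma adjusted p = 0.389), in the other direction.

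The oxidative pentose phosphate pathway makes NADPH, and both of its dehydrogenases rose. Pgd, which yields ribulose 5-phosphate, had log2 levels of 1.62, 0.09, 0.76 and 0.87 on basal arrays 1 to 4 and 3.42, 3.35, 3.30 and 3.17 on injured arrays 1 to 4. The injured arrays were all above 3 and the basal arrays all below 2, with a difference of 2.48 ± 0.28 (SE), adjusted p = 0.000162 by limma, a 5.57-fold rise. G6pdx, the first and rate-setting enzyme, had log2 levels of 0.98, 0.81, -0.54 and -0.35 on basal arrays 1 to 4 and 2.46, 2.21, 2.36 and 1.96 on injured arrays 1 to 4. Basal arrays 1 and 2 lay between basal arrays 3 and 4 and the injured group, and the difference was 2.02 ± 0.35 (SE), adjusted p = 0.00134 by limma. G6pdx is X-linked, and it read 2.46 on injured array 1, which had Y-linked transcripts, and 1.96 to 2.36 on the other injured arrays. Injured array 1 also had a log2 Xist level of 1.72, and the part of sex in this rise was not tested. Pgls, the lactonase between them, had overlapping groups and a log2 difference of 0.23 (limma adjusted p = 0.384).

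Of the non-oxidative enzymes, which exchange carbon between pentoses and glycolysis, 1 of 3 tested was called higher and none lower. That is near the 35.3% called higher of all genes tested, of which 24.8% were called lower. Tkt, transketolase, had log2 levels of -0.85, -2.20, -2.31 and -2.33 on basal arrays 1 to 4 and 1.48, 1.36, 0.52 and 0.71 on injured arrays 1 to 4. All injured arrays were above 0 and all basal arrays below, with basal array 1 apart from the other basal arrays, and the difference was 2.94 ± 0.37 (SE), adjusted p = 0.000271 by limma, a 7.68-fold rise that was 1.61 log2 units with normexp. Taldo1, transaldolase, the partner of Tkt, had a log2 difference of 0.01 ± 0.17 (SE, limma adjusted p = 0.947). Rpia, which makes ribose 5-phosphate, had a log2 difference of 0.31 (limma adjusted p = 0.445); in the authors' deposited table Rpia was called higher (1.53, limma adjusted p = 0.0477). Rpe was above background on 2 basal arrays and no injured array and was not tested.

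Of 7 glycogen genes 3 were called higher and 2 lower, which is near the 35.3% and 24.8% of all genes tested, with a median log2 difference of 0.47. Pygm, the muscle phosphorylase that releases glucose from glycogen, had log2 levels of 2.08, 2.46, 2.58 and 2.84 on basal arrays 1 to 4 and 0.03, -0.19, 0.42 and 0.50 on injured arrays 1 to 4. Every basal array was above 2 and every injured array below 1, and the difference was -2.30 ± 0.21 (SE), adjusted p = 6.03e-05 by limma. Gbe1, the branching enzyme, had log2 levels of -0.64, -0.84, -0.19 and -0.33 on basal arrays 1 to 4 and -1.50, -1.60, -1.29 and -1.50 on injured arrays 1 to 4. Its groups did not overlap either and the difference was -0.97 ± 0.17 (SE), adjusted p = 0.00124 by limma, but it was -0.47 with normexp and 0.63, the other direction, in the authors' deposited table. The other phosphorylases were not called, Pygb, the brain form, at 0.47 (limma adjusted p = 0.0646) and Pygl, the liver form, at -0.25 (limma adjusted p = 0.537) on the log2 scale. Without basal array 4, Pygb was called higher (0.64, limma adjusted p = 0.0111).

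Glycogen synthase and the phosphoglucomutases rose. Pgm1, which links glucose 1-phosphate to glucose 6-phosphate, had log2 levels of 1.76, 1.95, 0.70 and 0.89 on basal arrays 1 to 4 and 3.10, 3.05, 3.13 and 2.98 on injured arrays 1 to 4. The injured arrays were within 0.2 log2 units of each other and above all basal arrays, with a difference of 1.74 ± 0.28 (SE), adjusted p = 0.000897 by limma, a 3.34-fold rise. Gys1, the muscle glycogen synthase, had log2 levels of 1.20, 1.65, 1.62 and 1.91 on basal arrays 1 to 4 and 2.58, 2.46, 2.58 and 3.01 on injured arrays 1 to 4. The groups were apart with a difference of 1.06 ± 0.19 (SE), adjusted p = 0.00139 by limma, while its second probe was not called (0.58, limma adjusted p = 0.158 over all probes). Pgm2 had log2 levels of -1.16, -1.44, -0.63 and -1.49 on basal arrays 1 to 4 and -0.40, -0.21, -0.35 and -0.77 on injured arrays 1 to 4. Basal array 3 lay above injured array 4, the difference was 0.75 ± 0.22 (SE), adjusted p = 0.0163 by limma, and the call was lost without basal arrays 1 and 2 (0.63, limma adjusted p = 0.0812). The array's names for Pgm1 and Pgm2 are exchanged against current RefSeq symbols, and the current ones are used here.

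Isoforms of the same step were also compared directly. The ratio of 2 probes on the same array does not depend on the scaling of that array, so 15 pairs of tested members were compared in this way. In 7 pairs the injured and basal ratios did not overlap, which gives the smallest p the exact two-sided permutation test allows with 4 against 4 arrays (0.0286), and after Benjamini-Hochberg adjustment over the 15 pairs none passed 0.05 (adjusted p = 0.0612 for these 7 pairs). The count depends on the background correction: with normexp 11 of the 15 pairs passed after scaling to the 75th percentile and 10 after quantile normalization. A pair can pass only at this smallest p, and its adjusted p falls as more pairs reach it. Pairs therefore pass together or not at all, so the step in the count does not measure how many ratios changed more. Hk2 to Hk1 was the one of the 7 whose ratio was higher on all injured arrays, and no size is given for it because Hk2 was above background on no basal array. The injured minus basal difference of the log2 ratio was -1.96 for Pfkm to Pfkl, -1.25 for Pfkp to Pfkl, -1.28 for Aldoc to Aldoa and -1.49 for Pgam2 to Pgam1. It was -3.11 for Eno2 to Eno1, where the groups were only just apart, and -2.77 for the phosphorylases Pygm to Pygb. For Eno3 against Eno1 the difference of the log2 ratios was 0.45 (exact permutation p = 0.0571, adjusted p = 0.0857), and for Ldhb against Ldha 0.09 (exact permutation p = 0.914, adjusted p = 0.914).

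**Figure D4:**
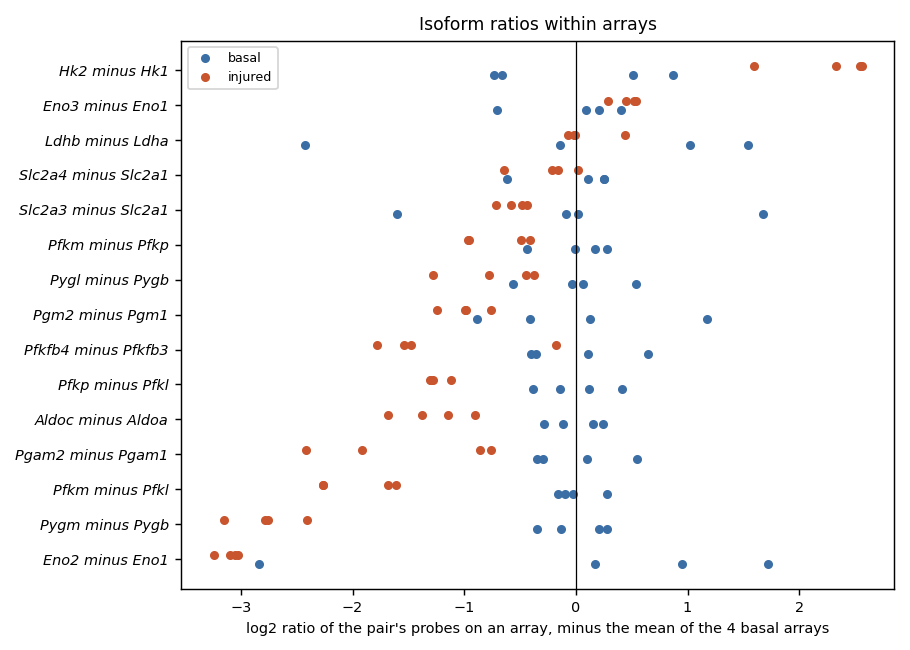
Log2 ratio of the probes of 2 isoforms on each array, less the mean of the 4 basal arrays, for 15 pairs, with basal arrays in blue and injured arrays in orange. Injured arrays lie wholly to the left for Eno2, Pygm, Pfkm, Pfkp, Pgam2 and Aldoc against their partners and wholly to the right for Hk2 against Hk1, where Hk2 was not above background on the basal arrays. The basal arrays of Eno2 against Eno1 spread the most.

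The wider pathway was read from 4 lists of other genes. Of 29 tested further genes of glycolysis, gluconeogenesis and hexose or lactate transport, 15 were called higher and 8 lower, beside 35.3% and 24.8% of all genes tested, with a median log2 difference of 0.55. The largest rises were those of Galk1, which feeds galactose into the pathway (log2 difference 2.63), Tigar, a phosphatase that lowers the activator of phosphofructokinase (2.24), and Adpgk, an ADP-dependent glucokinase (2.00). Adpgk was above background on 1 basal array, and with normexp its log2 difference was 0.69 and that of Tigar 1.42. The largest falls were in Gfpt2, of hexosamine synthesis, and the glucose carriers Slc2a8 (-2.23) and Slc2a12 (-1.97). Gfpt2 was above background on 4 basal arrays and no injured array and is given as at least 2.75-fold lower. None of these 3 falls was called in the authors' deposited table, where the log2 differences were -1.31 for Gfpt2, -0.51 for Slc2a8 and -0.19 for Slc2a12 (limma adjusted p = 0.0562, 0.34 and 0.724). With normexp Slc2a8 was -0.67 and Slc2a12 -0.62.

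Among 17 other glycogen genes tested, 3 were called higher and 5 lower, beside 35.3% and 24.8% of all genes, with a median log2 difference of -0.37. Gyg, the primer of glycogen, rose by 1.13 log2 units, and the kinases Gsk3b and Phkg2 by 0.50 and 0.37, the Gsk3b difference being 0.05 with the mean of its probes. With normexp Gyg was 0.64. In the authors' deposited table neither kinase was called (limma adjusted p = 0.0567 for Gsk3b and 0.0517 for Phkg2). Pgm5, a phosphoglucomutase-like protein of muscle cell junctions, fell by 4.23, Gaa, the lysosomal glucosidase, fell by 2.08, and Nhlrc1, a ubiquitin ligase, fell by 1.62 log2 units. Nhlrc1 was not called in the authors' deposited table, at -0.37 (limma adjusted p = 0.447), and was -0.99 with normexp. Of 6 other pentose phosphate and ribose phosphate genes tested, 5 were called higher and none lower, beside 35.3% and 24.8% of all genes. Their median log2 difference was 0.66. The rises were led by Dera (2.47), Prps1 (1.74), which makes the activated ribose of nucleotides and is X-linked, and Prpsap2 (0.67). Dera was above background on 1 basal array, and with normexp its log2 difference was 0.91 and that of Prpsap2 0.36. All 7 markers of cycling cells were called higher as well, beside 35.3% of all genes. Their summed linear signal was 0.82 to 10.3 on basal and 31.7 to 44.8 on injured arrays, and the part of cycling cells in these rises was not tested. Of the cycling cell markers, Cdc6, Ccna2 and Top2a were above background on 1, 2 and 2 basal arrays. These passed the filter on dim probes only through the injured group, where they were higher.

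Of 16 regulators of glycolysis tested, 4 were called higher and 6 lower, beside 35.3% and 24.8% of all genes, with a median log2 difference of -0.44. Egln3, a prolyl hydroxylase that marks hypoxia-inducible factors for removal, rose by 3.70 log2 units, Prkaa1, a subunit of AMP-activated kinase, by 1.42 and Trp53 by 1.34. Txnip, which restrains glucose uptake, fell by 4.73 log2 units, the largest fall among the pathway genes named here. Arnt, the partner of the hypoxia-inducible factors, fell by 1.99 log2 units in the scanner files, but was -0.80 with normexp and not called in the authors' deposited table (-0.078, limma adjusted p = 0.913). Hif1a, the oxygen-regulated factor itself, fell by 1.05 with its brightest probe, while the log2 difference was -0.45 with normexp, -0.0062 with the mean of its probes and 0.39 in the authors' deposited table. Leaving out one of several arrays ended the calls of Prkaa1, Phkg2 and Prpsap2, each taken by itself. Prkaa1 was above background on 1 basal array and was not called with normexp (0.26, limma adjusted p = 0.0565).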

How the data were processed

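RNA of 8 sorted satellite cell samples, 4 basal and 4 injured, was put on 1 Cy3 array each. The deposited scanner files hold spot intensity, from which Agilent Feature Extraction (version 10.7.3.1, as the authors' file headers give it) had subtracted background and a spatial trend. The authors also deposited normalized values on a log2 scale, with like column distributions, used as an alternative only; the submitters' processing notes name limma, with no account of the steps. The columns of that table were matched to groups and not to single arrays. Their rank correlation with the scanner arrays of the same group ran from 0.445 to 0.920, against 0.915 or more between scanner arrays of a group.

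From the intensity, log2 processed signal minus each array's 75th percentile was computed, leaving out 1119 flagged spots and averaging spots of a probe. Probes were named through RefSeq accessions or the array's own names, and the brightest probe stood for a gene. A gene entered the test if 3 or 4 arrays of a group held its probe well above background. The comparison of injured with basal arrays used limma 3.58.1 (R 4.3.3; lmFit and eBayes, no block, two-sided; degrees of freedom 6 residual, 2.55 prior). P-values of the 13752 genes were adjusted by Benjamini and Hochberg, and the threshold was 0.05. The code was tested on simulated data. Per-probe adjusted p-values come from the same model over all probes. A bound on a fold sets the bright group's mean against, on each array, the higher of the probe's own signal and the lowest signal well above background. The number of arrays limits the precision, and p-values measure only the spread between these samples.

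The members and lists were chosen with earlier results of these data known. Every member is named, and values on each array are given for up to 4 called members with the largest rise and up to 3 with the largest fall per branch, and for others where a result turns on them; other lists name up to 3 of each. Replicate numbers follow slide positions, and same-numbered arrays did not deviate together (correlations of -0.01 to 0.09). Alternatives were the normalization, background, probe filter and naming, variance model, replicate block, deposited table and left-out arrays. A slide block could not be fitted. Protein sequences were not analysed here.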

Additional observations from a re-analysis of the deposited data

Results flagged for a closer look

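In 5 of the 76 sets of 4 arrays examined, for the tested members in each group, 1 array stood apart by Dixon's measure, the gap to the nearest array divided by the range (compared with its critical value for 4 samples); chance flags about 1 in 20 groups. For Slc2a1, the main glucose carrier, basal array 4 read -0.64 against 1.14 to 1.38 on the other basal arrays on the log2 scale, a ratio of 0.883. For Slc2a3 basal array 1 read -2.15 against -0.89 to -0.77, a ratio of 0.915. For Tkt, transketolase, basal array 1 read -0.85 against -2.33 to -2.20, a ratio of 0.913. For Slc16a3, the lactate exporter, injured array 2 read -1.50 against -0.58 to -0.46, a ratio of 0.888, and for Eno2 injured array 4 read -2.33 against -2.07 to -2.05, a ratio of 0.915. Tkt kept its call without basal array 1, with a log2 difference of 3.30 (limma adjusted p = 3.88e-05).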

How the results depend on the processing

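The members called higher were 21 and the members called lower 3. Across the left-out arrays, 1 at a time, these ran from 21 to 22 and from 3 to 5, the 5 being without basal array 1, when Slc2a3 and Pfkfb3 were also called. With the replicate block there were 22 and 3, the added member being Pygb. Quantile, median and normexp settings, the mean of all probes, the array's own names, other variance models and no probe filter gave 21 or 22 higher and 3 or 4 lower; probes above background on all arrays left 32 tested, 19 higher and 4 lower. The authors' deposited table gave 21 members called higher, of which 19 were also called with the scanner files, and 1 lower (Pygm); Pfkfb4 was 0.085, Gbe1 0.63 and Hif1a 0.39 there, each against a fall in the scanner files, and the cause was not tested. In that table Hk2 was 1.43, Gys1 2.34, Pgm1 2.69 and Pgm2 1.30, the median log2 difference of all genes was 0.47 against 0.17, and 24.0% of all genes were called higher and 5.64% lower. With injured array 1 alone, 6 members were called higher. Without basal arrays 1 and 2 there were 20 higher and 4 lower. With normexp, dim members moved most: Hk2 to 0.42, Ldhb to 0.85, Pgam2 to 0.80, Tkt to 1.61, Pgm2 to 0.39, Pfkfb4 to -1.16 and Gbe1 to -0.47. The isoform pairs with a changed ratio were 0 of 15 with the scanner's own background correction, 11 with normexp and the 75th percentile, and 10 with normexp and quantile normalization; Ldhb minus Ldha was -1.46 with the former (exact permutation, adjusted p = 0.039). Quantile normalization alone, the deposited table and the mean of all probes gave 0 pairs. These counts step up from 0 at once, since pairs at the smallest p pass together or not at all. With 1 array of a group left out, the smallest p of the exact test cannot pass the adjustment. Members near background, such as Hk2 and Ldhb, are limited by signal over background.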
